A study of Mus musculus with 7 samples.

Results

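Claudins, occludin and the scaffold protein ZO-1, the main building blocks of tight junctions, were examined in mammary glands of tumour-prone mice on 2 diets. The genes were 8 claudins (Cldn1, Cldn3, Cldn4, Cldn5, Cldn7, Cldn8, Cldn12 and Cldn23), occludin (Ocln) and Tjp1, which encodes ZO-1. They were taken by symbol, as 10 of the 18193 genes with a probe set annotated to 1 gene, and had 18 of the 34945 such probe sets. All mice were virgin 8-week-old females of the strain FVB/PyV-Mt. They carried the polyoma virus middle T oncogene, which drives mammary tumours. No source used here names the promoter of the transgene. Control mice ate AIN93G chow, and the others had for 4 weeks a chow with 1% CLA, or conjugated linoleic acid, which is fatty acid isomers whose double bonds alternate with single ones. The study placed 5 and 6 mice on the diets, and the arrays compared here cover 3 control and 4 CLA glands, each of 1 mouse. Every group therefore carries the oncogene, and no gland without it is compared here.

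Tight junctions seal the space between neighbouring epithelial or endothelial cells near the apical surface. Claudins are small proteins that span the membrane several times and polymerise into strands, and the mixture of claudins in a strand sets whether it works as a barrier or as a pore for ions. Occludin joins these strands, and ZO-1 ties them from inside to the actin cytoskeleton. In the mammary gland the luminal epithelium carries most of these proteins, its junctions close at the onset of lactation, and Cldn5 is chiefly a protein of blood vessels.

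The values were MAS5 signals, the brightness of a probe set on a linear scale, and each gene was read from its probe set of highest mean log2 signal. Each array had the same trimmed mean signal of 500.003, and the number of arrays limits the precision. As a bulk tissue holds many cells, fewer cells of a type and less RNA per cell cannot be told apart. Epithelial markers were bright on all arrays, with Krt8 between 15379 and 19240 and Epcam between 13080 and 17107. The mean log2 signal of 12 epithelial markers was 12.07 ± 0.11 (SD, n = 3) on control chow and 12.13 ± 0.09 (SD, n = 4) on CLA chow, and their median log2 change was 0.0014. Skeletal muscle markers, by contrast, ranged over arrays from a mean log2 signal of 4.94 on CLA replicate 2 to 13.12 on control replicate 2, and all 10 of them had a lower mean in CLA glands. All 8 white adipocyte markers tested had lower signal in CLA glands, with a median log2 change of -1.58. The 6 lymphocyte markers on the array had mean log2 signals under that of the filter, a signal of 57.7, below which genes were not tested. The ratio of 3′ to 5′ signal of Actb, a sign of RNA quality, was 2.78 on CLA replicate 3 and 1.41 to 1.88 on the other arrays. The titles carry numbers starting with 27 (control replicate 1 and CLA replicate 1) or 28 (the other arrays), with no meaning stated. These are called the 27 set, with 1 array per group, and the 28 set, and differences within each set are given below beside the pooled ones.

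Of the 10 members, Cldn23 alone had groups that did not overlap, with higher signal in CLA glands, and it did not pass the test over all genes. All 10 members passed the filter on low signal. After limma's test with Benjamini-Hochberg adjustment over all 12497 genes tested, 0 of the 10 had an adjusted p under 0.05, as did 0 genes (0%) of all. At limma's unadjusted p under 0.05, 1 of 10 members was higher in CLA glands, against 2.38% of all genes, and 0 of 10 was lower, against 3.01%. The 2 groups did not overlap for 1 of 10 members, with CLA higher, against 2.64% of all genes. The log2 change was above 0 for 8 of 10 members, against 55.3% of all genes, and the members' median change was 0.080, against 0.027 over all genes. Median centring of the arrays raised the change of every gene by 0.081, and the change of Tjp1 then turned positive. The median over all genes was then 0.108, and the share of all genes above 0 was not counted on that scale.

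**Figure D1:**
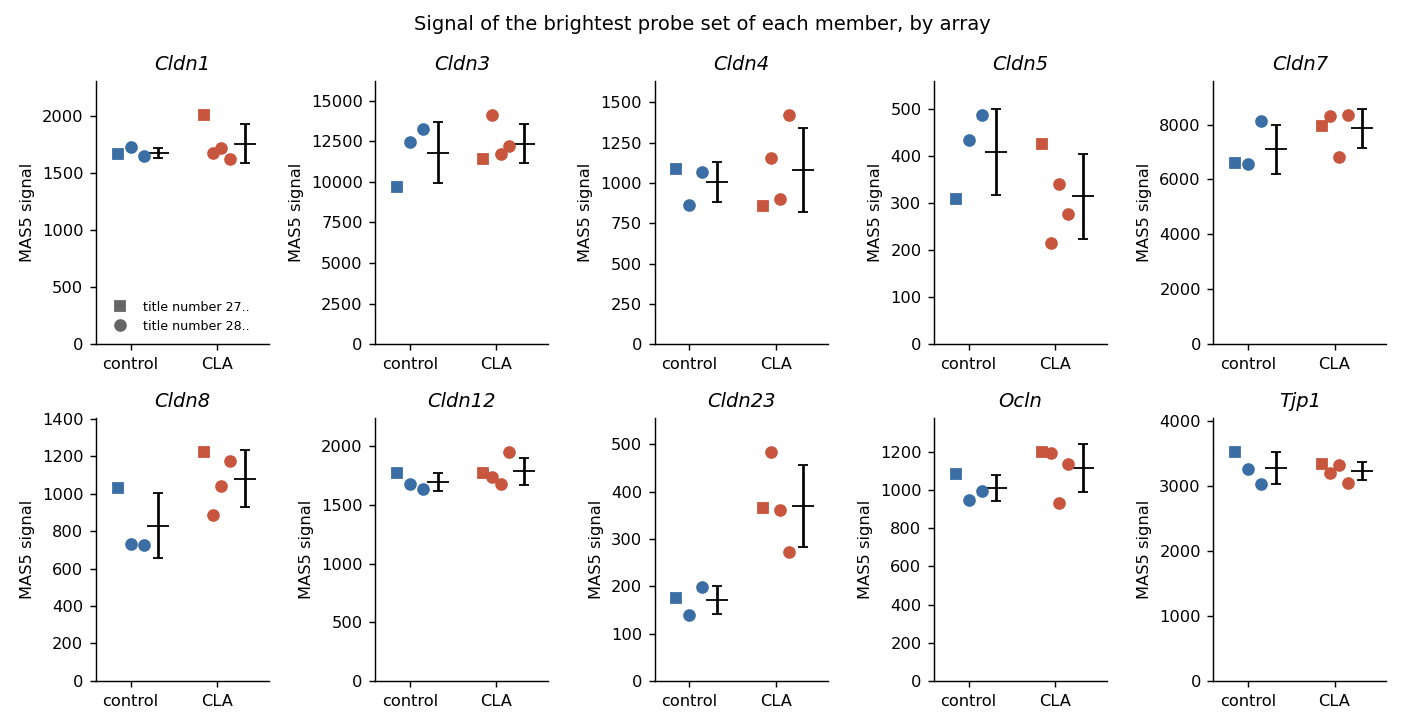
MAS5 signal (vertical axis, linear, from 0) of the brightest probe set of each of the 10 genes on 3 control and 4 CLA arrays. Points are arrays, squares those of the 27 set and circles those of the 28 set, and the bars give mean ± SD. The groups stand apart for Cldn23, with 140 to 199 in control and 272 to 484 in CLA glands, and overlap for the other genes.

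Cldn23, an unusually long claudin found in barrier epithelia, had the largest difference of the family members. In order of replicate, its signal was 175, 140 and 199 on the control arrays and 365, 484, 360 and 272 on the CLA arrays. Every CLA array was thus above every control array, and CLA replicate 2 was the highest. The group means were 171 ± 29.4 (SD, n = 3) and 370.3 ± 87.1 (SD, n = 4). Signal was 2.14-fold higher in CLA glands, a log2 change of 1.10 ± 0.24 (SE) with a 95% interval from 0.56 to 1.63. Limma's unadjusted p was 0.00115 and its adjusted p over all genes 0.462, so the difference did not pass. By unadjusted p the gene ranked 31 of 12497. The 27 set gave 1.06 and the 28 set 1.12. Leaving out each array in turn gave log2 changes from 0.96 to 1.24 and adjusted p from 0.153 to 0.9997.

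The Cldn23 difference was of similar size against the epithelial markers of the same array. With each array centred on its epithelial marker score, the log2 change was 1.04 ± 0.23 (SE), and the groups stayed apart. Limma's adjusted p over all genes was 0.429. The score itself differed by 0.057 between the groups, so centring could only lower the change of every gene by that amount. Whether epithelial content contributed to the Cldn23 signal was not tested. Of 8 basal epithelial markers 5 were also higher in CLA glands, against 55.3% of all genes, with a median log2 change of 0.63. Their summed level, as a mean log2 signal of 8 genes, was 7.58 to 8.71 on control arrays and 8.54 to 9.04 on CLA arrays. The basal keratins Krt17, Krt5 and Krt14 had log2 changes of 1.67, 1.24 and 1.40, and Trp63 had 0.85 ± 0.40 (SE). The contractile genes Myh11, Acta2 and Cnn1 had -0.59 ± 0.39, -0.036 ± 0.31 and 0.41 ± 0.98 (SE), and the oxytocin receptor gene Oxtr -0.093. Of these 8 basal markers 3 had an unadjusted p under 0.05, all higher, against 2.38% of all genes. With the basal score as a covariate, chosen after seeing the data, the Cldn23 change was 0.93 ± 0.31 (SE). Limma's unadjusted p was 0.0159 and its adjusted p over all genes 0.9999. Of 8 markers of cornified epidermis 3 were bright enough to be tested. Krt1, which was not among them, was 439 on CLA replicate 3 against at most 51.6 on the other arrays. Krt10 (1078) and Flg (97.2, under the filter) were also highest on CLA replicate 3. Lor, Sbsn, Dsg1a, Krt2 and Lce1a1 were not, and Krt2 was lowest there. Cldn23 on that array, 360, lay between those of the other CLA arrays. Without CLA replicate 3 the Cldn23 log2 change was 1.10. Whether cornified tissue contributed to the Cldn23 signal was not tested.

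Cldn8, a barrier-forming claudin best known from the kidney collecting duct, where it works with Cldn4, had the next largest positive value. Its signal was 1032, 730 and 726 on the control arrays and 1222, 884, 1040 and 1176 on the CLA arrays. Control replicate 1 overlapped the CLA arrays, while control replicates 2 and 3 lay below all of them. Means were 829 ± 175 (SD, n = 3) and 1081 ± 152 (SD, n = 4), 1.31-fold higher on CLA, with a log2 change of 0.39 ± 0.19 (SE) and a 95% interval from -0.027 to 0.81. Limma's unadjusted p was 0.0636 and the adjusted p 0.904. The log2 change of Cldn8 was 0.24 in the 27 set and 0.50 in the 28 set. It was 0.56 without control replicate 1 and 0.30 without control replicate 3. With the title number start as a block it was 0.42 ± 0.14 (SE), with limma's unadjusted p of 0.0188 and an adjusted p of 0.601. Against the epithelial marker score it was 0.33 ± 0.22 (SE), and with the basal score as a covariate 0.23 ± 0.23.

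**Figure D2:**
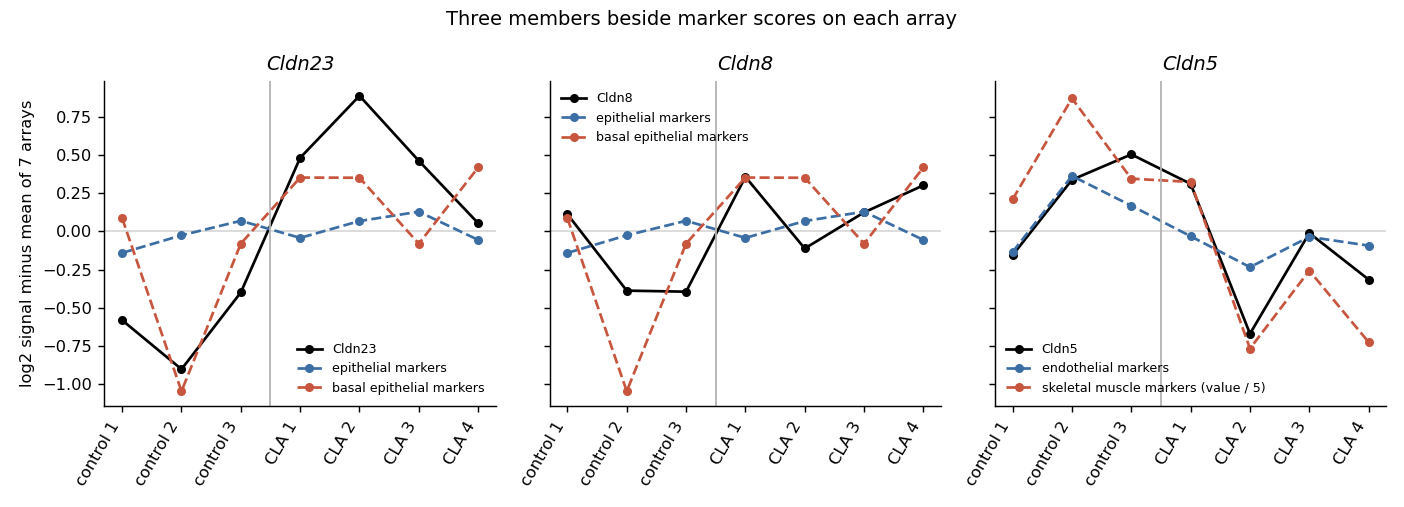
Log2 signal of Cldn23, Cldn8 and Cldn5 (black) on each array, minus the mean over the 7 arrays, beside marker scores (dashed, the mean log2 signal of a marker list treated alike). The grey line parts control from CLA arrays, and the muscle score is divided by 5 to share the axis. Epithelial markers stay near 0. Cldn23 is above 0 on all 4 CLA arrays, though close to 0 on CLA replicate 4, and Cldn5 is lowest on CLA replicate 2.

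Cldn5, the claudin that seals blood vessels, was the member with the most negative value. Signal was 308, 434 and 487 on the control arrays and 426, 216, 341 and 276 on the CLA arrays. The groups overlapped, since control replicate 1 was below CLA replicates 1 and 3. Means were 410 ± 91.6 (SD, n = 3) and 315 ± 90.0 (SD, n = 4), 1.32-fold lower on CLA. The log2 change was -0.40 ± 0.27 (SE), with a 95% interval from -1.0 to 0.20, limma's unadjusted p of 0.166 and an adjusted p of 0.942. The sign differed between the sets, with 0.47 in the 27 set and -0.75 in the 28 set. Leaving out each array in turn gave -0.59 to -0.23. The value nearest to 0 came from leaving out CLA replicate 2, the lowest array, followed by -0.26 when control replicate 3, the highest, was left out.

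Other endothelial markers were lower in most cases too. Of 13 tested, 10 had a negative change and 3 a positive one, while 55.3% of all genes had a positive change. The positive ones were Pecam1 (0.18), Eng (0.096) and Tek (0.036). The median was -0.24. Limma's unadjusted p was under 0.05 for 0 of the 13, against 2.38% of all genes higher and 3.01% lower. Separate groups were seen for 3 of the 13 markers, Flt1, Ptprb and Esam, all lower on CLA, against 2.67% of all genes. Their summed level, as a mean log2 signal, was 8.39 to 8.89 on control and 8.29 to 8.49 on CLA arrays. Against this endothelial score, the Cldn5 change was -0.17 ± 0.26 (SE), with an unadjusted p of 0.524. With the skeletal muscle score as a covariate it was 0.18 ± 0.32 (SE), so its sign turned. Muscle signal was 9.82 to 13.12 on control arrays, 10.38 on CLA replicate 1 and 4.94 to 7.49 on the other CLA arrays.

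The other 7 members, which include the claudins best known from luminal mammary epithelium, had log2 changes between -0.016 and 0.15. All their 95% intervals lay between -0.37 and 0.54, and limma's adjusted p ranged from 0.972 to 0.999. These intervals bound the differences that 3 and 4 arrays leave possible and do not show that the levels were equal.

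Cldn3 and Cldn4, claudins that also serve as receptors of a clostridial enterotoxin, are neighbours on mouse chromosome 5. Cldn3 signal was 9669, 12439 and 13290 on control and 11392, 14102, 11699 and 12226 on CLA arrays. Its lowest value was control replicate 1 and its highest CLA replicate 2, and the groups overlapped. The log2 change was 0.075 ± 0.14 (SE), with 0.24 in the 27 set and -0.025 in the 28 set. The 3 other probe sets of Cldn3 had changes of 0.081 to 0.13 and the same overlap. Cldn4 signal was 1083, 861 and 1066 on control and 856, 1153, 900.3 and 1419 on CLA arrays. CLA arrays held both the lowest and the highest Cldn4 value. The log2 change of Cldn4 was 0.086 ± 0.20 (SE), with -0.34 in the 27 set and 0.25 in the 28 set. Without CLA replicate 4, its highest array, it was -0.054.

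Cldn7, which binds the adhesion protein Epcam at the lateral membrane, had signals of 6591, 6554 and 8138 on control and 7959, 8328, 6806 and 8333 on CLA arrays. CLA replicate 3 was low among the CLA arrays and control replicate 3 high among the controls, so the groups overlapped. Its log2 change was 0.15 ± 0.13 (SE), positive in both sets at 0.27 and 0.093. Cldn1, a barrier claudin that the epidermis needs to hold water, had signals of 1663, 1727 and 1644 on control and 2004, 1676, 1717 and 1620 on CLA arrays. CLA replicate 1 was the only Cldn1 value well above the control range, the log2 change was 0.059 ± 0.13 (SE), and the 27 and 28 sets gave 0.27 and -0.013. Of its other probe sets 1 was tested, with signals from 162 to 743 and a change of 0.28 ± 0.45 (SE), and the remaining 2 lay under the filter. Cldn12, a claudin that lacks the tail other claudins use to bind ZO-1, had signals of 1634 to 1776 on control and 1682 to 1951 on CLA arrays. The log2 change of Cldn12 was 0.074 ± 0.12 (SE) on this probe set and -0.058 ± 0.17 (SE) on its other one. Its differences in the 27 and 28 sets were -0.0024 and 0.11.

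Occludin, which is not a claudin but shares the strands, had signals of 1083, 950.2 and 995 on control and 1199, 1193, 931 and 1135 on CLA arrays. Of the CLA arrays 3 lay above all controls and CLA replicate 3 below all of them. The log2 change of Ocln was 0.14 ± 0.15 (SE), 0.15 in either set, and -0.046 ± 0.21 (SE) on its other probe set. It was 0.22 without CLA replicate 3, the array of highest Actb ratio, and 0.19 with that ratio as a covariate. Tjp1, whose ZO-1 protein binds claudin tails through PDZ domains, had a narrow range within the CLA group. Its signals were 3520, 3258 and 3030 on control and 3343, 3204, 3327 and 3041 on CLA arrays, all CLA values within the control range. The log2 change of Tjp1 was -0.016 ± 0.12 (SE), with -0.074 in the 27 set and 0.021 in the 28 set.

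**Figure D3:**
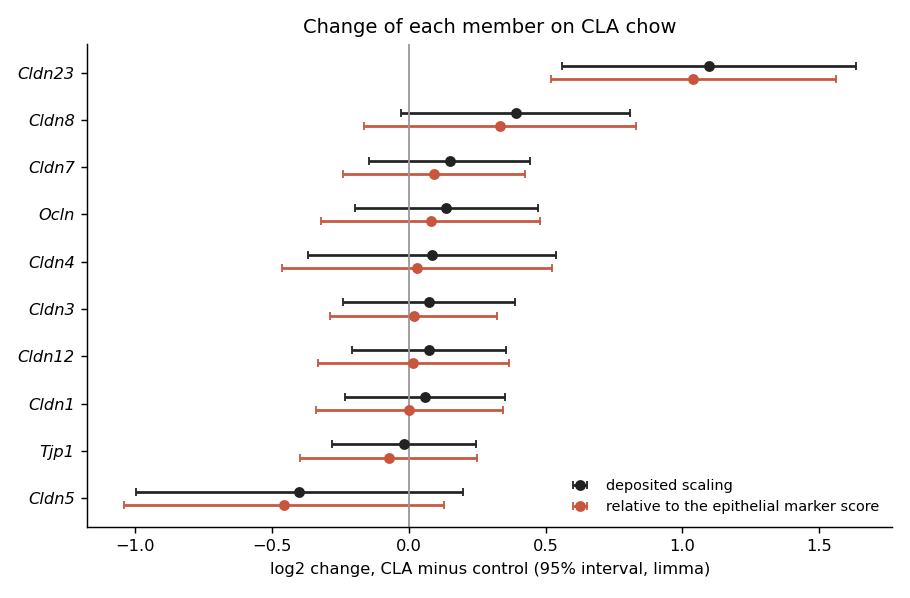
Log2 change (CLA minus control, horizontal axis) of each gene with its 95% interval from limma, on the deposited scaling (black) and with every array centred on its epithelial marker score (red). Intervals of Cldn23 lie above 0 on both scales, from 0.56 to 1.63 and from 0.52 to 1.56, and those of the other 9 genes include 0. The intervals are not adjusted for the number of genes tested. Limma's adjusted p of Cldn23 was 0.462 and 0.429 on these scales.

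Repressors of the epithelial state such as Snai1, Snai2, Zeb1 and Zeb2 bind the E2-box, CAGGTG or CACCTG on the other strand. Promoters of 8 of the 10 genes, with 12 start sites, are in the RefSeq table (GRCm38.p6). Those of Cldn8 and Cldn23 are not. In the 250 bases before each start, the E2-box was found for 3 of the 8 genes and 3 of 12 start sites, against 17.2% of all 32851 entries. The matches are shown because the transcripts of these repressors were measured on the same arrays. Each window has 30 bases, 5′ to 3′ on the strand of the gene, with the E2-box in capitals.
Cldn4, chr5:134946935-134946964, minus strand: ggagctttaactgcagCACCTGtggccgcc
Cldn7, chr11:69965312-69965341, plus strand: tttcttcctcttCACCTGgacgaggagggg
Cldn7, chr11:69965352-69965381, plus strand: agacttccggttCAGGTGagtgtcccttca
Ocln, chr13:100552694-100552723, minus strand: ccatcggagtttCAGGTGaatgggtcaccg
Ocln, chr13:100552549-100552578, minus strand: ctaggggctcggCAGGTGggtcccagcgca

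The box began 14 bases before the start in Cldn4, 97 and 57 bases in Cldn7, and 213 and 68 bases in Ocln. The GC box GGGCGG, on either strand, was found for all 8 genes, at 10 of 12 start sites, against 32.7% of all entries. Windows of Cldn12 overlap, and its matches 13 and 73 bases before a start are the same bases, so the start sites are not independent. The TATA box TATAAA and the Grainyhead site AACCGGTT were found at 0 of the 12, against 12.4% and 0.116% of all entries. A match in these windows is a description of the letters and not a measured binding site.

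Transcripts of the regulators of epithelial junction genes gave 0 of 17 members past limma's adjusted or unadjusted threshold. At the unadjusted threshold, 2.38% of all genes were higher and 3.01% lower. The median log2 change of the 17 was 0.047, against 0.027 over all genes, with 10 of 17 positive, against 55.3% of all genes. Klf4, a factor of epithelial differentiation, had the smallest p, with a log2 change of -0.54 ± 0.24 (SE). Zeb2 had -0.43 ± 0.20 (SE), with signals of 233 to 280 on control and 163 to 210 on CLA arrays, so that its groups did not overlap, for 1 of 17 genes lower against 2.67% of all genes. Snai2, a repressor also expressed in basal cells, had 0.50 ± 0.29 (SE). Zeb1 and Snai1 had -0.27 and 0.080. The adjusted p of all these was 0.904 or above.

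Among the 14 other claudin genes with a probe set, 6 passed the filter and 8 did not. None of the 6 passed limma's adjusted threshold, and 1 of 6 had an unadjusted p under 0.05, with lower signal on CLA, against 3.01% of all genes. This was Cldn15, a claudin that forms sodium pores in the intestine. Its signal was 165, 208 and 194 on the control arrays and 89.6, 124, 86.7 and 113 on the CLA arrays, so every CLA array was below every control. The log2 change of Cldn15 was -0.88 ± 0.24 (SE), 1.84-fold lower, with limma's unadjusted p of 0.0052 and an adjusted p of 0.688. Cldnd1, a claudin-domain protein, had -0.18 ± 0.15 (SE), and Cldn2, a cation pore of leaky epithelia, had -0.21 ± 0.34 (SE) with signals of 1026 to 3092 on CLA arrays. Over the 6 genes the median change was -0.15, against 0.080 for the 10 members.

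**Figure D4:**
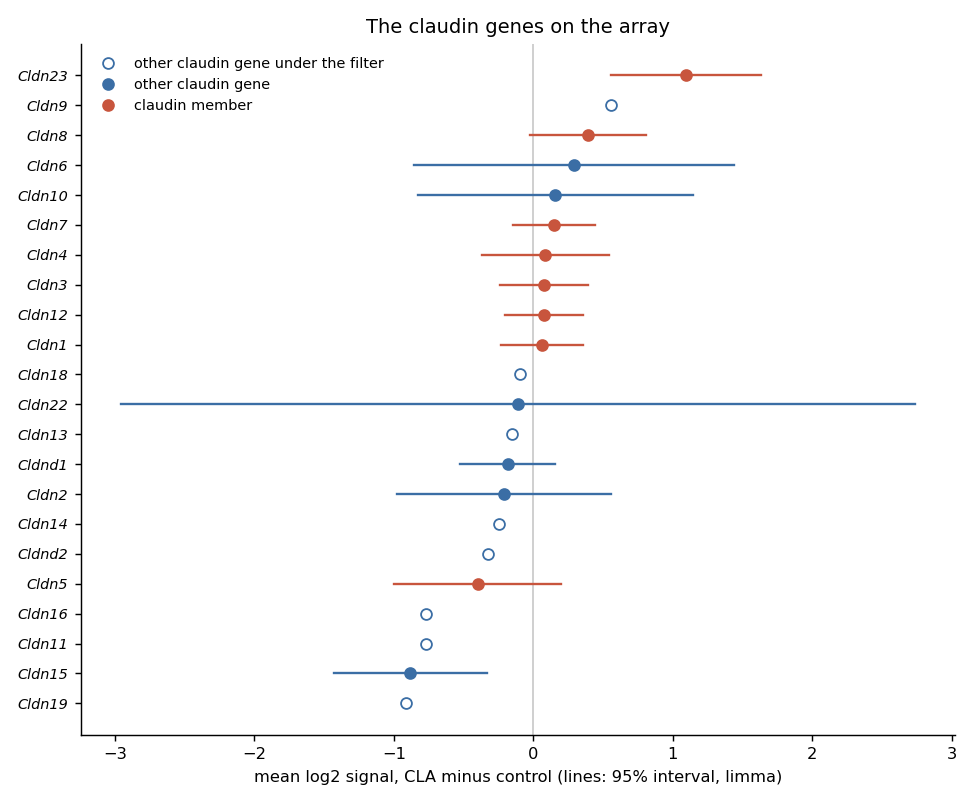
Difference in mean log2 signal, CLA minus control (horizontal axis), of the 22 claudin and claudin-domain genes with a probe set, in order of the difference. Filled points passed the filter and carry limma's 95% interval, and open points lay under the filter and were not tested. Among the tested genes Cldn23 (1.10) is the highest and Cldn15 (-0.88) the lowest, and the open point of Cldn19 lies below Cldn15.

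The cytoplasmic plaque and partner proteins of tight junctions showed no member past the test. Of 32 genes tested, 20 had a positive change, against 55.3% of all genes, and the median log2 change was 0.037. Limma's unadjusted p was under 0.05 for 0, against 2.38% of all genes higher and 3.01% lower. The 2 groups stood apart for 1 of 32 genes (2.64% of all genes stood apart with CLA higher), Arhgef2, whose product binds junctions and microtubules. Arhgef2 signal was 421 to 546 on control and 556 to 711 on CLA arrays, with a log2 change of 0.35 ± 0.17 (SE). The adhesion molecule gene Jam3 had 0.50 ± 0.30 (SE) and Tjap1, whose product binds the plaque, 0.24 ± 0.16. Marveld2, which encodes tricellulin and is the neighbour of Ocln on chromosome 13, had signals of 937 to 1228 on control and 908 to 1273 on CLA arrays.

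Adherens junction genes, whose cadherin contacts lie just below the tight junction, also gave no call. None of 12 tested members had a limma unadjusted p under 0.05, against 2.38% of all genes higher and 3.01% lower. A positive change was seen for 5, against 55.3% of all genes, and the median was -0.0025. Cdh3, the P-cadherin of basal cells, had 0.75 ± 0.53 (SE), Vcl, vinculin, 0.17 ± 0.12 and Nectin4 0.47 ± 0.40. The E-cadherin gene Cdh1 had signals of 5440 to 9527 on control and 5000 to 11911 on CLA arrays, a range that held no separation by diet.

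Profiles over the 7 arrays were also compared by distance, the root mean square of the difference between 2 genes' log2 signals after each was centred on its own mean. Of all tested genes the nearest to Cldn23 was Rtn1, a reticulon, at a distance of 0.22, with signals of 99.9 to 150.1 on control and 157 to 248 on CLA arrays. The SD of log2 signal over arrays was 0.65 for Cldn23, against 0.077 (Tjp1) to 0.42 (Cldn5) for the other members. As the distance grows with a gene's own spread, distances of different members are not directly comparable. The nearest gene to Cldn8 was Rabepk at 0.090, to Cldn5 Ccnj at 0.12, to Cldn4 Cpne8 at 0.065 and to Cldn7 Lxn at 0.055. Ube2g1 was nearest to Cldn1 at 0.036, Supt5 to Cldn3 at 0.041, Vamp3 to Cldn12 at 0.032, Rpain to Ocln at 0.020 and Mtif2 to Tjp1 at 0.028. No member was the nearest gene of another.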

How the data were processed

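Total RNA of whole mammary glands was labelled with biotin and read on Affymetrix arrays of 1 colour, per the labels' protocols. The deposited intensity values are MAS5 signals, per the submitters' processing notes, scaled to 1 trimmed mean (2% off each end). No source used here gives the MAS5 version or genome build. Scaling makes every change relative to a gland's other transcripts.

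Of 45101 probe sets, 64 controls were left out, and of the rest 34945 had 1 symbol, 932 several and 9160 none. Symbols were updated by Entrez identifier. Signals below 1 were set to 1 and log2 taken. A gene was its probe set of highest mean log2 signal, tested if that mean reached the 40th percentile (a signal of 57.7). Groups came from the diet label, each sample being described as a mouse. Limma 3.58.1 in R 4.3.3 (lmFit, eBayes with trend, checked on simulated data) compared CLA with control, two-sided, with Benjamini-Hochberg adjustment over every gene tested and a threshold of 0.05. A second fit over all probe sets with 1 symbol gave values of further probe sets. Named were all members, the 3 genes of smallest p in each junction list and in basal and endothelial markers, and each member's nearest profile. Other genes were named for their role. The members, lists and rules were chosen with earlier results of these data known. Covariates for the Actb 3′ to 5′ ratio and the basal score were chosen after seeing the data. Figures used matplotlib 3.10.9.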

Additional observations from a re-analysis of the deposited data

Results flagged for a closer look

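Groups of 4 CLA arrays were checked for 1 array far from the others, by the gap to its nearest neighbour over the whole range of log2 signal, against Dixon's critical value. Of 46 probe sets checked 3 passed it, where chance gives about 1 in 20. For Cldn3, CLA replicate 2 was the highest CLA array on all 4 probe sets and passed on 2, with ratios of 0.958 (13157 against 10496 to 10597) and 0.830 (12764 against 10478 to 10836). For Lor, a marker of cornified epidermis, CLA replicate 2 was the lowest CLA array, with a ratio of 0.976 (68.4 against 283 to 294).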

How the results depend on the processing

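Over 23 alternatives, 7 of which left out an array, 0 of 230 member values passed the threshold and 214 kept their direction. Those of Cldn7, Cldn8, Cldn12 and Cldn23 did so under all 23. Some of the 214 could not have turned. Dropping the filter, raising it to the 60th percentile or running eBayes without trend cannot move a log2 change, only its error and p. Averaging over probe sets cannot move a member that has only 1. Cldn12 was negative on its other probe set (-0.058) and in the 27 set (-0.0024), which were not among the 23. With the 28 set alone, log2 changes were -0.013 for Cldn1, -0.025 for Cldn3 and 0.021 for Tjp1, and 1 gene was called over all genes. With the muscle score as a covariate they were -0.37 for Cldn4, 0.18 for Cldn5 and 0.032 for Tjp1, and with the basal score -0.15 for Cldn4 and -0.0036 for Ocln. Tjp1 was 0.064 with median centring and 0.21 with arrays centred on endothelial markers, which moved the median of all genes by 0.23. The cause was not tested. With an array left out, changes ran from -0.0064 to 0.096 for Cldn1, -0.063 to 0.17 for Cldn3, -0.054 to 0.19 for Cldn4, 0.096 to 0.25 for Cldn7, 0.031 to 0.11 for Cldn12, 0.095 to 0.22 for Ocln and -0.070 to 0.038 for Tjp1. The number of genes called then ran from 0 to 17, with 17 without CLA replicate 4, 2 without control replicate 1 and 0 without any other array. No member was among them. Cldn23 ran from 0.87 to 1.33 under the other 16 alternatives. No paired analysis was run, since the glands came from different mice and the labels name no pairs. The labels give no replicate numbers, and those used here follow the order of the samples. The title number start as a block called 0 genes with limma, with 935 at an unadjusted p under 0.05, and gave 1.10 for Cldn23.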

Other observations

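Cldn22, chosen after its values were seen, was bright on 1 array of each group, with 1091 on control replicate 3 and 3939 on CLA replicate 4 against 88.9 to 163 on the other 5 arrays. Its log2 change was -0.11 ± 1.27 (SE).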
